A study of Arabidopsis thaliana with 51 samples.

Results

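Dark root was compared with dark cotyledon in Arabidopsis thaliana, the thale cress, over 5 two-colour arrays out of 51 in the series. The arrays were chosen by their labels: 2 carried RNA of root in the dark and 3 RNA of cotyledon in the dark, and total RNA of cultured cells was the other RNA on each. Light root (2 arrays), light cotyledon (2) and dark hypocotyl (2), each also set against cultured cells, served to place the comparison. The labels give organ and light condition. Strain, genotype, plant age, growth medium and hours of darkness are not given in the sources used here, nor whether arrays of a group came from separate plants. The SE and p-values thus describe array-to-array spread, which may be technical. That spread was pooled within the 20 groups of all 51 arrays, so it is not that of these 5 arrays alone. The array number, 2 against 3, limits the precision of every value.

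Cotyledons are the seed leaves. They hold seed reserves at first, and their plastids become chloroplasts in light, whereas in seedlings raised without light the plastids stay as etioplasts that hold a precursor of chlorophyll. Roots take up water and ions and carry suberised and lignified cell walls. Class III peroxidases, secreted enzymes of a large plant family, cross-link or loosen wall polymers and act in lignin formation and defence, and many members are known for expression in roots.

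A level below is the log2 ratio of organ to cultured cells with each array's median at 0, and a difference is root minus cotyledon on the log2 scale, with the standard error (SE) of a limma fit. A level said to be above or below cultured cells, or the reference, lies above or below that 0. Such statements depend on the centring, since the deposited medians were 0.18 to 0.74 on the 5 dark arrays. That the deposited ratios run organ over cultured cells is likely, but it is not stated in the sources used here. It was read from the 2 light root arrays, which had the organ in opposite channels and correlated at 0.7502 over 25305 probes, and from photosynthesis genes lying high in light cotyledons. The sign of the photosynthesis genes is therefore not an independent finding, and under the opposite reading every difference would turn. On the reading used, the pollen genes ACT12 (6.42) and TUA1 (2.93) had their highest level in stamen. The pistil and ovule genes THI2.1 (10.46) and INO (3.61) had theirs in pistil. Stamen and pistil were in channel 2, as on the dark arrays. The organ was in channel 2 on all 5 dark arrays, so the reference and a dye effect common to these arrays cancel in the difference. The 5 arrays held 24911 to 26468 values. The 2 root arrays correlated at 0.7609. Cotyledon replicates 2 and 3 correlated at 0.9374 and replicate 1 with them at 0.7451 and 0.7474, so replicate 1 stood apart. Root and cotyledon arrays correlated at 0.5458 to 0.6267. Fewer cells of a type and less RNA per cell cannot be told apart in such whole-organ RNA.

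Of 24721 probes tested, 3045 (12.3%) were called, with a difference of at least 2-fold and an adjusted p below 0.05. In dark root 1496 (6.05% of those tested) were higher and 1549 (6.27%) lower. Among the calls, 867 higher and 934 lower probes differed at least 4-fold, and 175 and 149 at least 16-fold. The root and cotyledon arrays did not overlap in 98.2% of called probes, against 45% of all tested probes. The median difference over all tested probes was -0.03, with an SD of 1.28, and the median SE was 0.62. Without centring, the median of all differences moved to 0.10 and 59.0% of the calls were higher, against 49.1% with it. Without root replicate 2 it was 59.8%, with 2145 calls.

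Relative to the array medians, the higher probes were of 3 kinds. For 652 of them root lay above the array median and cotyledon below it, for 405 both lay above, and for 439 both lay below, as with OSM34 described next. Of the lower probes, 682 had root below and cotyledon above, 666 had both above and 201 both below. A name was available for 1661 tested genes, of which 263 (15.8%) were called, 126 higher and 137 lower. The remaining 2775 called probes carry no gene name here.

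**Figure D1:**
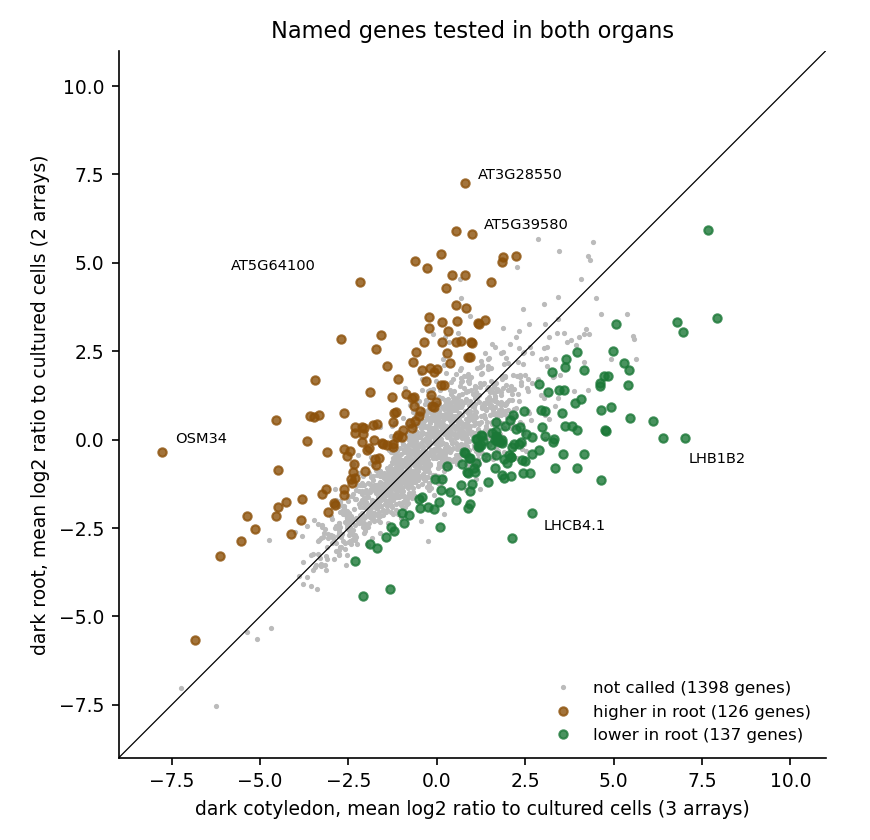
Mean level in dark root (vertical axis, 2 arrays) against dark cotyledon (horizontal axis, 3 arrays) for the 1661 named genes tested, both as log2 ratios to cultured cells. Brown points are the 126 genes called higher in root and green points the 137 called lower, and the diagonal marks equal levels. OSM34 lies far above the diagonal although its root level is below 0.

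Class III peroxidases were the gene group most often higher in dark root. Of 24 tested members, 16 were higher, 1 was lower and 7 did not pass, against 6.05% of all tested probes higher and 6.27% lower. The median difference of the list was 2.94, beside -0.03 over all probes. Both root arrays lay above all 3 cotyledon arrays for 19 of the 24, where the groups did not overlap in either direction for 45% of all tested probes. The median level of the list was 3.68 and 3.59 on the 2 root arrays and 0.75, 0.61 and 0.45 on the 3 cotyledon arrays. The peroxidase list was chosen with the high root levels of these genes known from the same arrays, so its direction is not independent evidence.

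AT5G64100 had the largest difference of the peroxidases. It stood at 4.57 and 4.33 in root and at -1.79, -2.34 and -2.39 in cotyledon. The difference was 6.62 ± 0.57 (SE), or 98.5-fold, with an adjusted p of 2.8e-10. AT5G17820 stood at 5.46 and 4.66 in root and at -0.41, -0.74 and -0.74 in cotyledon, a difference of 5.69 ± 0.60 (adjusted p = 1.4e-08). For both genes the root arrays were all above the reference and the cotyledon arrays all below it. AT3G01190 gave 5.25 and 5.26 in root against 0.79, -0.21 and -0.23 in cotyledon, a difference of 5.14 ± 0.52. AT4G37520 differed by as much, 5.12 ± 0.36, at lower ratios to cultured cells, with 0.87 and 0.24 in root and -4.58, -4.55 and -4.56 in cotyledon. A further probe of AT4G37520 gave 5.07, and a further probe of AT3G01190 gave 3.22 with an SE of 1.40 and did not pass.

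The other peroxidases among the 12 highest genes were AT1G68850 (5.12 ± 0.78), AT5G39580 (4.85 ± 0.68) and AT2G38380 (4.28 ± 0.68). AT5G39580 stood at 6.54 and 5.12 in root and reached 1.99 on cotyledon replicate 1, against 0.50 and 0.45 on replicates 2 and 3. The groups still did not overlap. The calls of these 7 genes held whichever of the 5 arrays was left out. Among the other higher members, AT5G64120 (3.19 ± 1.09) lost its call without any 1 of the 5 arrays (adjusted p from 0.052 without cotyledon replicate 2 to 0.28 without root replicate 1). AT4G36430 (2.13 ± 0.68) lost it without either root array (0.099 and 0.24) or without cotyledon replicate 2 (0.12) or 3 (0.095). AT3G32980 (3.87 ± 0.94) lost it without root replicate 1 (0.070).

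The single lower peroxidase was AT1G71695, at 0.26 and -0.03 in root and 2.28, 1.39 and 1.36 in cotyledon, a difference of -1.56 ± 0.30. Its direction was thus opposite to that of the list. The 7 members that did not pass had differences from -0.16 for AT3G28200 to 1.87 for AT4G30170. AT4G30170 was high on the root arrays (5.36 and 5.33), and its cotyledon arrays were at 2.54, 4.26 and 3.60, all below the root but well above the reference. Members of this family resemble each other in sequence, and the part of cross-hybridisation in these values was not tested.

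OSM34, an osmotin-like gene of the thaumatin family known from stress and defence responses, had the largest difference of all named genes. It stood at -0.11 and -0.57 in root and at -7.15, -8.01 and -8.15 in cotyledon. The difference was 7.42 ± 0.41, or 172-fold, with an adjusted p of 3.2e-15. Root was therefore near cultured cells and cotyledon far below them, and none of the 5 values was at the lowest deposited ratio of 0.001.

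AT3G28550, a member of the cell wall list, stood at 7.20 and 7.30 in root and at 0.58, 0.98 and 0.86 in cotyledon, a difference of 6.45 ± 0.54 (87.3-fold). Both organs were above cultured cells, and the arrays of each were close together. AT2G15220 stood at 2.94 and 2.74 against -2.32, -2.93 and -2.90, a difference of 5.55 ± 0.84. AT1G26380 stood at 3.15 and 2.75 against -1.35, -1.76 and -1.64, a difference of 4.53 ± 0.88. For both loci the root lay above the reference and the cotyledon below it on every array. AT5G38070 was less even. Its root arrays gave -1.04 and 4.43, and its cotyledon arrays -3.57, -3.41 and -3.38, so that the difference of 5.15 ± 1.22 fell to 2.41 without root replicate 2, with an adjusted p of 0.35.

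**Figure D2:**
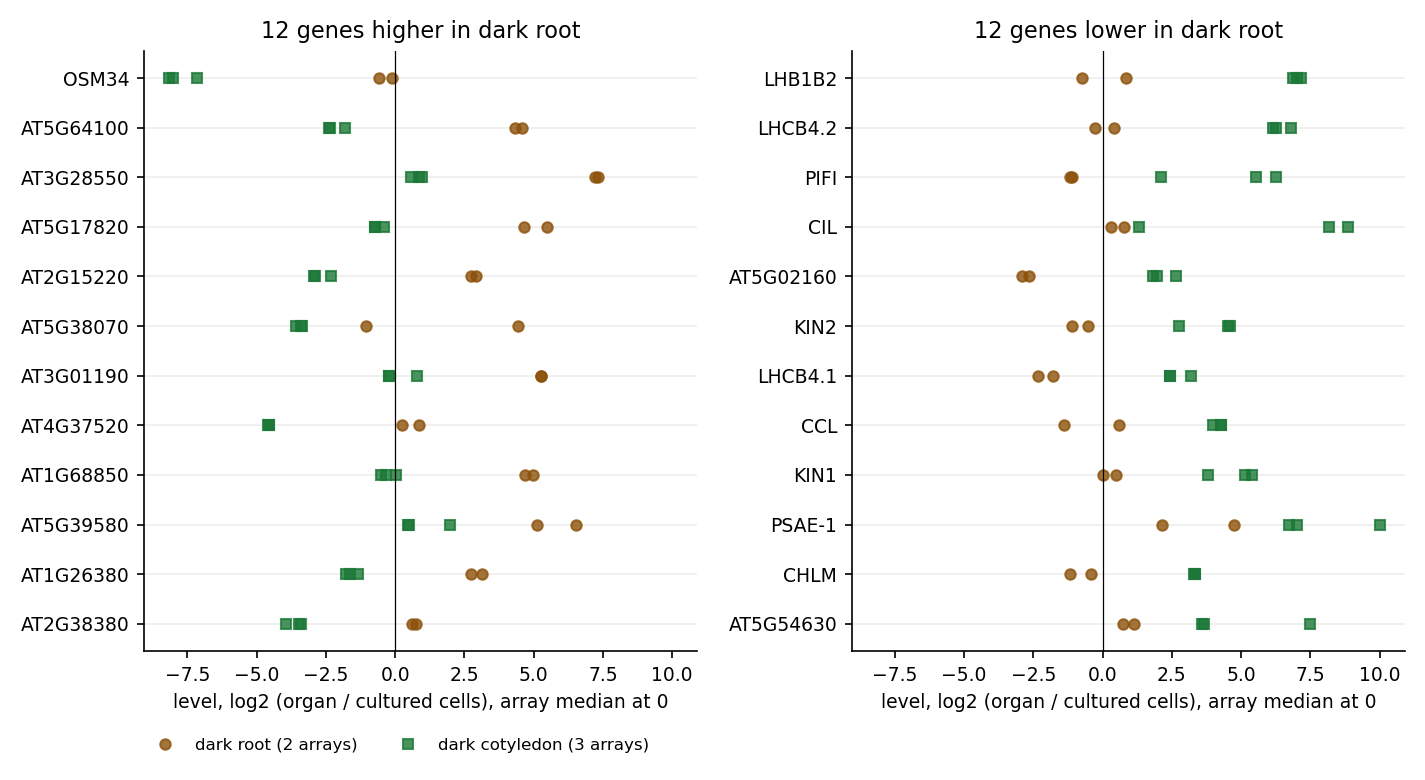
Levels of the 12 named genes with the largest higher difference (left) and the 12 with the largest lower difference (right), 1 point per array, as log2 ratios to cultured cells with the array median at 0. Brown circles are the 2 dark root arrays and green squares the 3 dark cotyledon arrays, and the groups do not overlap in any of the 24 genes. AT5G38070 shows its 2 root values far apart, and CIL, PIFI and AT5G54630 show cotyledon replicate 1 apart from replicates 2 and 3.

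Photosynthesis genes were the list with the lowest median. Of 9 tested members, 7 were lower in dark root, 1 was higher and 1 did not pass, against 6.27% of all tested probes lower and 6.05% higher. The median difference was -3.97. In dark cotyledon the median level of the list was 5.57 and in dark root 0.95. The root did not overlap with the cotyledon for any of the 9, with 8 lower and 1 higher, beside 45% of all tested probes without overlap. In dark cotyledon 8 of the 9 levels were above 0, and in dark root 7. Since the direction of the ratios was read from such genes in light cotyledon, these levels are no check of the organ labels.

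LHB1B2, a light-harvesting chlorophyll-binding antenna gene of photosystem II, had the lowest difference of all named genes. It stood at -0.73 and 0.84 in root and at 7.16, 6.86 and 7.02 in cotyledon. The difference was -6.96 ± 0.63, or 124-fold lower, with an adjusted p of 8.9e-10. The 3 cotyledon arrays were close together, while the root arrays lay on either side of the reference. LHCB4.1 and LHCB4.2 encode a minor antenna protein of photosystem II. LHCB4.2 stood at 0.40 and -0.28 in root and at 6.24, 6.14 and 6.79 in cotyledon, a difference of -6.33 ± 1.37. LHCB4.1 stood at -1.80 and -2.34 in root and at 3.17, 2.44 and 2.42 in cotyledon, a difference of -4.75 ± 0.29, and a further probe gave -4.14. LHCB4.3, a close relative of both, went the other way. It stood at 1.54 and 0.37 in root and at -1.05, -0.41 and -0.46 in cotyledon, a difference of 1.59 ± 0.50, and it was the single higher member of the list. Its call was lost without root replicate 1 (adjusted p = 0.40), without cotyledon replicate 1 (0.10) and without cotyledon replicate 3 (0.0504).

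The photosystem I subunit genes PSAN and PSAE-1 were both lower in root. PSAN stood at -0.28 and -0.52 against 3.04, 3.84 and 3.83, a difference of -3.97 ± 0.38. PSAE-1 was well above cultured cells in both organs, with 4.72 and 2.14 in root and 7.02, 10.00 and 6.74 in cotyledon. Its difference of -4.49 ± 1.29 lost the call without root replicate 2 (-3.19, adjusted p = 0.29) or cotyledon replicate 2 (-3.45, 0.11). ATPC1, the γ subunit of the chloroplast ATP synthase, differed by -3.92 ± 0.70, by -2.53 without root replicate 2, and with an adjusted p of 0.10 when the 5 arrays were fitted alone. AT2G26500 differed by -3.14 ± 0.72. PSBY, a photosystem II subunit with no value on cotyledon replicate 1, gave -2.72 ± 1.38 and did not pass.

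Of 7 tested genes of chlorophyll, haem and carotenoid synthesis, 4 were lower in root, 3 did not pass and none was higher, against 6.27% and 6.05% of all probes, with a median difference of -1.19. Fitted on the 5 arrays alone, 2 were lower. CHLM, the methyltransferase that acts on magnesium protoporphyrin, stood at -0.42 and -1.18 in root and at 3.35, 3.33 and 3.31 in cotyledon. The difference was -4.13 ± 0.38 (adjusted p = 8.9e-10), and the cotyledon arrays were nearly equal. PORB, a protochlorophyllide oxidoreductase that needs light for its reaction, was above cultured cells in both organs, at 3.74 and 2.92 in root and 5.41, 7.59 and 7.41 in cotyledon. Its difference of -3.47 ± 0.99 lost the call without root replicate 2 (adjusted p = 0.15) or without cotyledon replicate 2 (0.066) or 3 (0.058). HEME2, a uroporphyrinogen decarboxylase, and HEMB1, a 5-aminolevulinate dehydratase, differed by -2.64 ± 0.36 and -1.19 ± 0.29. GSA1, which makes 5-aminolevulinate, gave -0.47 ± 0.42, and LYC, a lycopene cyclase, gave -0.55 ± 0.39. Neither passed, nor did hemf2, at 0.12 ± 1.39.

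Of 14 tested genes of thylakoid assembly, thylakoid redox reactions and photorespiration, 7 were lower in root, 1 was higher and 6 did not pass, against 6.27% lower and 6.05% higher among all probes. The median was -1.48, and 3 were lower in the fit of the 5 arrays alone. PIFI, a chloroplast protein gene tied to electron flow after illumination, stood at -1.17 and -1.10 in root and at 2.1, 5.55 and 6.25 in cotyledon, a difference of -5.77 ± 1.26. CYTC6A, a cytochrome of the thylakoid lumen, differed by -2.58 ± 0.44, with 2.60, 1.91 and 1.80 in cotyledon against -0.35 and -0.60 in root. HPR, the hydroxypyruvate reductase of photorespiration, stood at 0.69 and 0.84 against 3.69, 3.51 and 3.43. Its groups lay far apart, yet the difference of -2.78 ± 0.77 lost the call without either root array (adjusted p = 0.090 and 0.071). CaS, a thylakoid calcium-sensing protein gene with 2 cotyledon values, gave -4.85 ± 1.60 and lost it without root replicate 1 (0.22), root replicate 2 (0.12) or cotyledon replicate 3 (0.055), and also without centring (0.052). Without root replicate 1, 4 members of the list were lower, and 3 without root replicate 2. The single higher member, AT1G80380, differed by 1.15 ± 0.39. Its call was lost in 4 of the 5 fits that left out an array, with adjusted p from 0.067 to 0.52, and its difference was 0.08 after quantile normalization.

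Among the lowest 12 genes that are on no photosynthesis or chloroplast list, CCL, a clock-regulated gene known for the timed decay of its transcript, stood at 0.60 and -1.39 in root and at 3.98, 4.26 and 4.28 in cotyledon. The difference was -4.56 ± 0.56. AT5G02160 stood at -2.66 and -2.90 against 2.63, 1.95 and 1.81, a difference of -4.91 ± 0.24 with the smallest SE of these 12. CIL, a relative of the chloroplast import regulator CIA2, stood at 0.76 and 0.29 in root and at 1.32, 8.86 and 8.16 in cotyledon. Replicate 1 was thus near the root and the other 2 far above it. Its difference of -5.58 ± 1.39 lost the call without root replicate 2 (adjusted p = 0.064) or cotyledon replicate 2 (0.053). AT5G54630 had replicate 1 on the other side, at 7.49 against 3.67 and 3.57, with root at 0.73 and 1.12 and a difference of -3.98 ± 0.82.

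**Figure D3:**
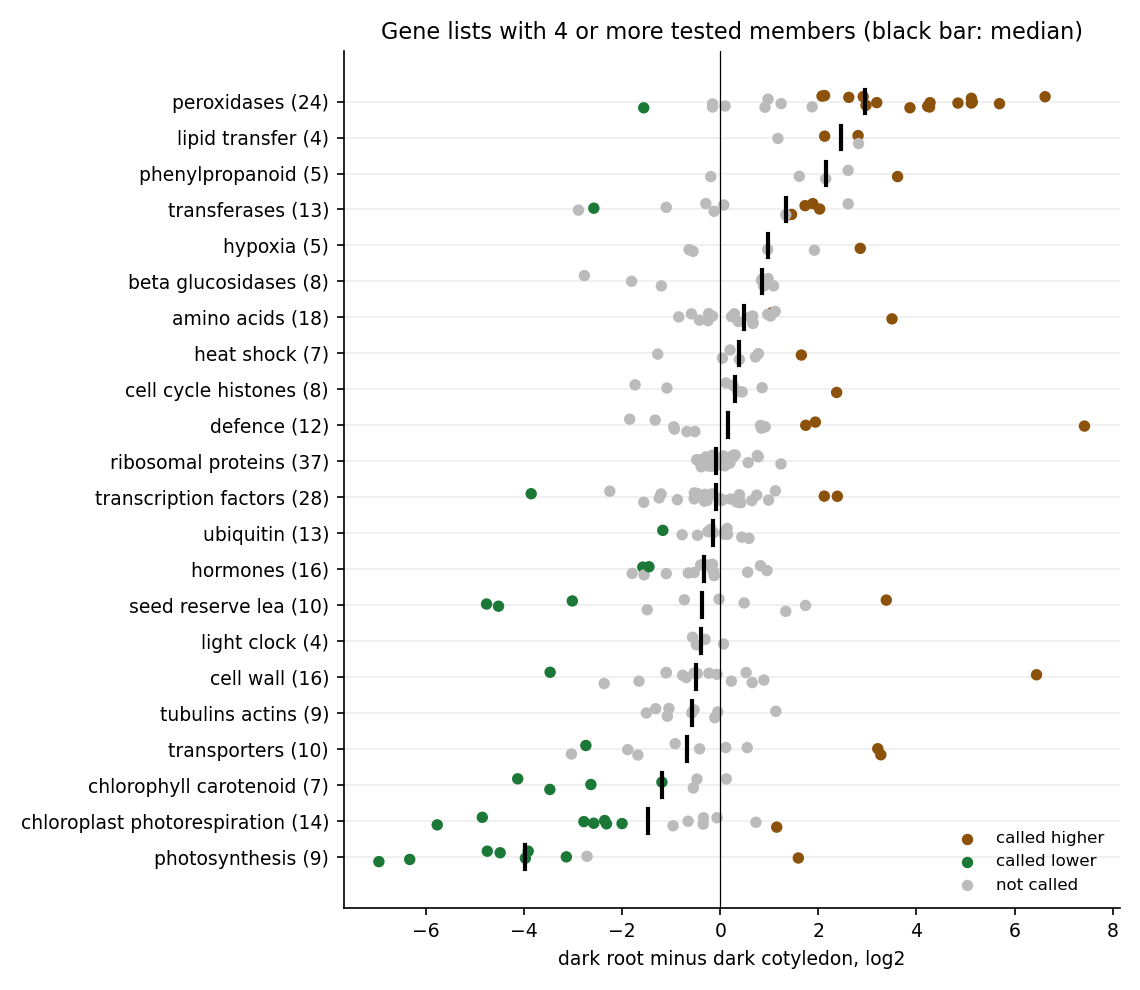
Differences between dark root and dark cotyledon for the members of the 22 gene lists with 4 or more tested members, 1 point per gene on the log2 scale, with the number tested in parentheses and a black bar at the list's median. Brown points are called higher, green called lower and grey not called. Peroxidases have the highest median (2.94) and photosynthesis the lowest (-3.97), and no member of the ribosomal protein, tubulin and actin, β-glucosidase or light and clock lists is called.

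Seed and dehydration genes had calls of both signs. Of 10 tested members of the seed reserve, late embryogenesis and cold list, 3 were lower in root, 1 was higher and 6 did not pass (40.0% called, beside 12.3% of all probes), with a median of -0.38. KIN2 and KIN1, neighbouring genes induced by cold and abscisic acid, were lower in root. KIN2 stood at -0.51 and -1.09 in root and at 2.75, 4.61 and 4.52 in cotyledon, a difference of -4.76 ± 0.58. KIN1 stood at 0.50 and 0.01 in root and at 3.79, 5.15 and 5.39 in cotyledon, a difference of -4.52 ± 0.65. The pair are near-identical in sequence, so 1 of them could give the signal of both probes. OLEO3, an oleosin gene of seed oil bodies, stood at 2.30 and 0.90 in root and at 4.70 and 4.53 on the 2 cotyledon arrays with a value. Its difference of -3.02 ± 1.01 lost the call without root replicate 1 (adjusted p = 0.060) or 2 (0.33) and under 3 other scalings (0.063 to 0.10). AT3G17520, of the late embryogenesis kind, was the single higher member, at 2.36 and 3.96 against 1.15, -1.09 and -0.73. Its difference of 3.38 ± 1.00 lost the call without root replicate 2 (0.27) or without cotyledon replicate 2 (0.087) or 3 (0.069), and with arrays scaled to a common median absolute value (0.065). The oil mobilisation list had 2 tested genes (50% called, beside 12.3% of all probes). ACS, an acetyl-CoA synthetase, was higher by 1.14 ± 0.26, and AIM1, a β-oxidation enzyme gene, gave 0.66 ± 0.31 and did not pass.

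Genes of metabolism and transport had calls of both signs. APS4, an ATP sulfurylase that opens sulphate assimilation, stood at 2.25 and 1.91 in root and at -0.57, -1.91 and -1.78 in cotyledon, a difference of 3.50 ± 0.56. Of the 18 tested genes of amino acid and nitrogen metabolism, APS4 and the branched-chain aminotransferase ATBCAT-5 were higher, and none was lower (11.1% called, near the 12.3% of all probes). The difference of ATBCAT-5, 1.05 ± 0.30, fell below 2-fold without root replicate 1 (0.80) or without cotyledon replicate 2 (0.92) or 3 (0.997). Of 10 tested transporter genes, 2 were higher and 1 was lower (30.0% called, beside 12.3%). SFP1, a sugar transporter-like gene, was below cultured cells everywhere, at -1.89 and -2.41 in root and -5.25, -5.33 and -5.50 in cotyledon, a difference of 3.21 ± 0.37. SWEET17, a vacuolar fructose transporter, stood at 5.53 and 2.08 against 1.27, 0.07 and 0.26. Its difference of 3.27 ± 0.79 fell to 1.55 without root replicate 1 (adjusted p = 0.35). ATNTT2, a plastid ATP/ADP transporter, differed by -2.74 ± 0.39, and by -1.65 without root replicate 2.

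Of 4 tested lipid transfer protein-like genes, AT1G48750 (2.81 ± 0.44) and AT3G18280 (2.13 ± 0.37) were higher (50% called, beside 12.3% of all probes). AT3G22620 gave 2.82 ± 0.98 (adjusted p = 0.055) and AT5G46900 1.17 ± 0.64, and neither passed. AT3G22620 passed without centring (0.040), with a common median absolute value (0.012) and after quantile normalization (0.010). It also passed with the replicate block (0.047) and without cotyledon replicate 3 (0.048). CCOAMT, a caffeoyl-CoA methyltransferase-like gene, was the 1 called gene of 5 tested in the phenylpropanoid list (20% called, beside 12.3%). It stood at -0.03 and -0.08 against -2.15, -4.26 and -4.59, and its difference of 3.61 ± 0.95 lost the call without root replicate 1 (adjusted p = 0.064) or 2 (0.062), and with arrays scaled to a common median absolute value (0.063). Of 13 tested glycosyl and glutathione transferase genes, 4 were higher and 1 was lower (38.5% called, beside 12.3% of all probes), with a median of 1.34. Fitted on the 5 arrays alone, 2 were higher. GSTU27 was higher by 1.89 ± 0.33. The other calls above were GSTF4 (2.03 ± 0.53, lost without root replicate 2 at an adjusted p of 0.13), GT72B1 (1.73 ± 0.41, lost without root replicate 1 at 0.068) and UGT74B1. UGT74B1, which makes the core of glucosinolates, stood at 2.79 and 1.87 in root against 0.98, 0.93 and 0.72. Its difference of 1.45 ± 0.46 lost the call without root replicate 1 (0.36) or without cotyledon replicate 2 (0.062) or 3 (0.086). UGT88A1 was the lower member, by -2.58 ± 0.51.

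The glucosinolate list held UGT74B1 and 2 genes that did not pass, BCAT4 (1.02 ± 0.62) and the transporter GTR1 (-0.92 ± 0.43). Its called share was 33.3%, beside 12.3% of all probes. Of the 2 tested cytochromes P450, CYP71B22 was higher by 1.86 ± 0.63, a call that was kept only without cotyledon replicate 1 among the 5 fits that left out an array (adjusted p from 0.083 to 0.29 in the others). CYP71B5 gave -2.26 ± 1.21 and did not pass, so that 50% of this list was called, beside 12.3% of all probes. No β-glucosidase of 8 tested was called, against the same 12.3%, with differences from -2.77 to 1.09. PYK10, a root β-glucosidase, gave 0.98. Besides OSM34, 2 of the 12 tested defence genes were higher and none was lower (25.0% called with OSM34, beside 12.3%). JAL34, a jacalin-related lectin gene, stood at 1.07 and 0.52 against -1.20, -1.05 and -1.19, a difference of 1.94 ± 0.33. AT4G33720 gave 1.74 ± 0.55, and 1.25 without root replicate 2. It lost its call without any 1 cotyledon array (adjusted p from 0.055 to 0.066). In light it was called lower in root (-2.26 ± 0.60), and its dark minus light change of 4.01 ± 0.82 was called. In the cell wall list, 14 of 16 tested genes did not pass (12.5% called, near the 12.3% of all probes). Beside AT3G28550, the called gene was GH9C2, an endoglucanase, at 3.10 and 0.84 in root against 5.55, 5.58 and 5.19. Its difference of -3.47 ± 0.74 lost the call without root replicate 2 (-2.34, 0.11).

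Of 28 tested transcription factor genes, 2 were higher and 1 was lower (10.7% called, near the 12.3% of all probes). WRKY6, a factor known from senescence and phosphate responses, lay below cultured cells in both organs, at -1.88 and -2.44 in root and -4.23, -4.68 and -4.72 in cotyledon. The difference was 2.39 ± 0.36. LBD16, a regulator of lateral root formation, stood at 0.04 and -0.69 in root and at -2.04, -2.62 and -2.69 in cotyledon. Its arrays did not overlap, but the difference of 2.12 ± 0.71 (adjusted p = 0.043) lost the call without either root array (0.28 and 0.092) or without cotyledon replicate 2 (0.10) or 3 (0.11), and with arrays scaled to a common median absolute value (0.066). YAB3, a YABBY factor of the lower side of leaf-like organs, stood at 2.80 and 0.31 in root and at 5.27 and 5.56 on 2 cotyledon arrays. Its difference of -3.85 ± 1.18 fell to -2.61 without root replicate 2 (0.34) and missed under the same scaling (0.054).

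Of 16 tested hormone genes, 2 were lower and none higher (12.5% called, near the 12.3% of all probes). These were BRH1, a brassinosteroid-responsive gene (-1.58 ± 0.52), and RALFL34, a signalling peptide gene (-1.45 ± 0.45). Both calls were kept only without cotyledon replicate 1 among the 5 fits that left out an array, with adjusted p from 0.15 to 0.18 and from 0.087 to 0.13 in the others. Without centring they missed too (0.061 and 0.0505), and BRH1 also after quantile normalization (-1.12, 0.16) and with a common median absolute value (0.10). UBP15, a ubiquitin-specific protease, was the 1 called gene of 13 in its list (7.7% called, below the 12.3% of all probes). Its difference was -1.17 ± 0.32 and fell to -0.92 without root replicate 2. The 4 light and clock genes gave differences from -0.56 for TIC to 0.07 for CSN5B, and none passed, where 12.3% of all probes were called.

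None of 37 tested cytosolic ribosomal protein genes was called, against 12.3% of all probes, with differences from -0.48 to 1.24 and a median of -0.09. None of 9 tested tubulins and actins was called, with a median of -0.58. Of 8 genes of replication, histones and division, only CYCJ18, a cyclin-like gene, was called (12.5%, near the 12.3% of all probes). It was higher, at -0.59 and 0.08 against -3.13, -2.63 and -2.12, a difference of 2.37 ± 0.51. Markers of dividing cells gave 0.85 for TOPII, 0.26 for PRL and -1.09 for HTB2, and none of the 3 passed. Of 7 heat shock and chaperone genes, only ATJ1 was called (14.3%, near the 12.3% of all probes). It was higher, at -1.68 and 0.33 against -1.46, -2.80 and -2.74. Root replicate 1 overlapped with the cotyledon there, and the difference of 1.65 ± 0.46 fell to 0.65 without root replicate 2 (adjusted p = 0.58). Of 5 genes known to respond to low oxygen, AT1G19530 was higher, at -3.29 and -3.30 in root against -6.36, -6.33 and -5.75 in cotyledon, a difference of 2.85 ± 0.34. The other 4 were not called, so that 20% of this list was called, beside 12.3% of all probes.

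Markers of pollen, pistil and ovule were not called. The seed gene OLEO3 was called lower in root, with the limits given above. The pollen genes ACT12, VGD1 and TUA1 gave -1.05 ± 0.86, -1.04 ± 0.97 and -0.05 ± 0.32. VGD1 stood at 1.72 on cotyledon replicate 1 but at -0.78 and -0.87 on replicates 2 and 3. The pistil and ovule genes THI2.1 and INO gave -1.33 ± 0.95 and -0.32 ± 0.47, and THI2.1 likewise stood at 4.36 on cotyledon replicate 1 against 1.30 and 0.90. The median level of the 3 pollen genes was that of VGD1 on every dark array, so it adds nothing to the VGD1 values. ACT12 stood at 2.04, 1.76 and 0.87 on cotyledon replicates 1, 2 and 3, and TUA1 at -0.48, -1.62 and -1.61. The part of the difference of cotyledon replicate 1 in the results was not tested beyond the values without it given here.

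Dark hypocotyl, the seedling stem, was measured on 2 further arrays with the organ in the same channel. All 12 of the highest genes and 11 of the lowest 12 had a hypocotyl level between root and cotyledon. Over all calls the hypocotyl lay between for 1056 of 1436 higher probes with a value and for 979 of 1445 lower ones. It was nearer root than cotyledon for 1134 of the lower probes and nearer cotyledon for 311. Of the higher probes, 679 were nearer root and 757 nearer cotyledon. These are counts of levels, with no test. The genes and probes were picked for gaps between root and cotyledon, and a wide gap more readily holds the level of another organ. The share over all tested probes was not counted, here or for the lists below. The counts thus do not show that hypocotyl is intermediate in general.

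The peroxidase list had a median of 3.51 in root, 1.88 in hypocotyl and 0.62 in cotyledon, and the photosynthesis list 0.95, 2.11 and 5.57. Within the peroxidases the hypocotyl lay between for 13 of 24. AT5G64100, at 1.14, was intermediate, whereas AT2G37130 was higher in hypocotyl (6.78) than in root (5.43 and 4.98) or cotyledon (2.61, 2.1 and 1.98). AT1G68850, at 0.33 in hypocotyl, was nearer its cotyledon levels (0.02, -0.52 and -0.32) than its root levels (4.99 and 4.70). For LHB1B2 the hypocotyl was at 2.49 and for CHLM at 0.92, both between the organs.

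**Figure D4:**
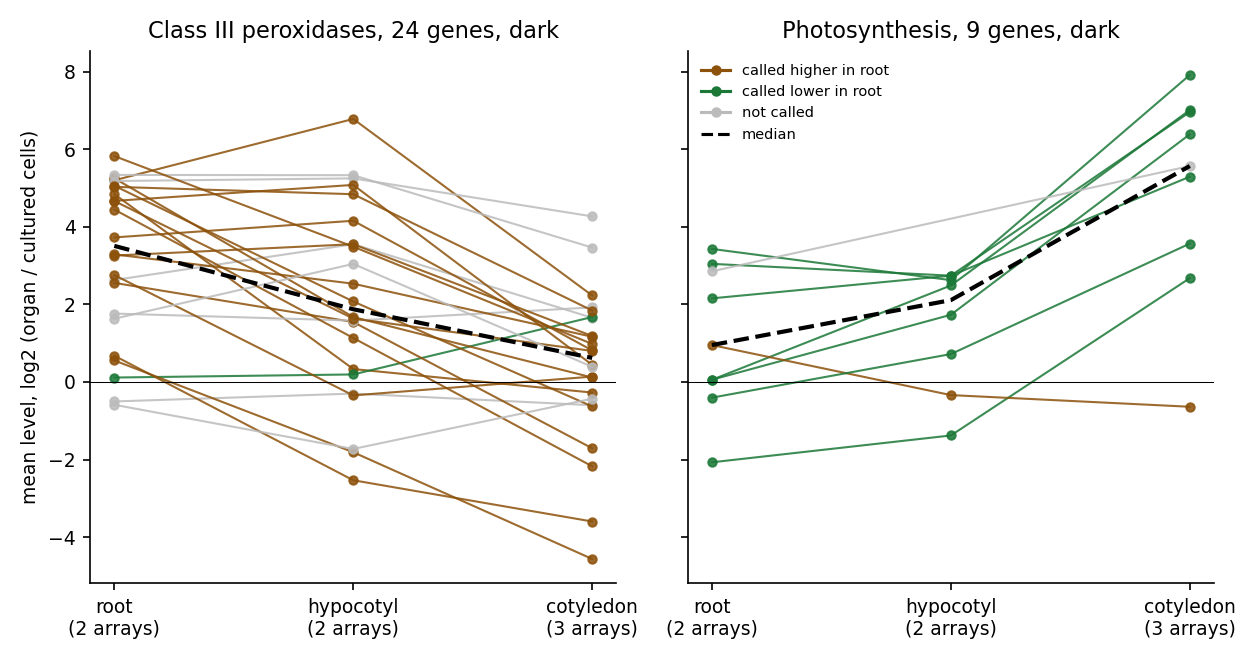
Mean levels in dark root (2 arrays), hypocotyl (2 arrays) and cotyledon (3 arrays), as log2 ratios to cultured cells, for 24 peroxidases (left) and 9 photosynthesis genes (right), 1 line per gene. Brown lines are genes called higher in root than in cotyledon, green called lower, grey not called, and the dashed line is the median, which runs 3.51, 1.88 and 0.62 for peroxidases and 0.95, 2.11 and 5.57 for photosynthesis.

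The same organs in light were compared on other arrays. Of 24338 probes tested, 5555 (22.8%) were called, 3565 (14.6%) higher and 1990 (8.18%) lower in root. This comparison rests on the light root arrays n1 and p1, which carry the same number and may hold the same RNA, and p1 has the organ in channel 1. Without p1 the count was 3228. Among probes tested in both conditions, 892 were called higher in root in both, which is 61.9% of the 1442 dark calls and 25.6% of the 3490 light calls. The lower calls shared 793 probes, 53.5% of 1481 in dark and 42.2% of 1881 in light. Opposite calls were made for 24 of the dark higher and 41 of the dark lower probes. Of the 12 highest dark genes, 10 of 11 tested in light were also called higher there, and of the 12 lowest, 11 of 11 were called lower. AT5G38070 was the exception, at 2.77 in light, which did not pass.

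The organ difference itself was tested between dark and light as dark minus light. It differed for 1463 of 22926 probes (6.38%), with 431 (1.88%) more positive in dark and 1032 (4.5%) more negative. The median of all was -0.28, and 29.5% of the calls were positive. Without centring the count was 965 and the positive share 46.9%, with a median of -0.01. Without array p1 it was 600 and 48.0%, and without root dark replicate 2 it was 739 and 48.0%. Leaving out cotyledon light replicate 1 or 2 gave 866 or 712. The balance of signs is therefore not settled by these arrays.

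The photosynthesis list had a median organ difference of -7.54 over 8 members tested in light and of -3.97 over 9 in dark. Over the 8 tested in both, the median change was 2.81. For 3 of these the difference was smaller in dark by the test, against 1.88% of all probes changed that way. These were LHCB4.1 (dark minus light 2.85 ± 0.43), PSAN (4.09 ± 0.57) and AT2G26500 (4.62 ± 1.02). HPR had a dark difference of -2.78 and a light difference of -7.37, a change of 4.59 ± 1.15 (adjusted p = 0.012), whose call was lost without cotyledon light replicate 2 (0.067) or root dark replicate 2 (0.052). LHB1B2 gave -6.96 in dark and -4.90 in light, and that change did not pass (adjusted p = 0.20). Of 23 tested peroxidases, 3 had a more negative organ difference in dark, AT2G37130 (-5.64 ± 0.85), AT4G30170 (-4.46 ± 0.98) and AT3G21770 (-3.27 ± 0.58), and none a more positive one, against 4.5% and 1.88% of all probes. AT5G64100 gave 6.62 in dark and 7.29 in light, and the change did not pass (adjusted p = 0.72).

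Ribosomal protein genes were called higher in light root for 30 of 36 tested, against 14.6% of all probes, and for 0 of 37 in dark. Their median in light was 1.56, beside 0.25 over all probes. The change itself was called for 12 of 36, each more negative in dark, against 4.5% of all probes, with a median of -1.60. With the light root arrays averaged to 1 sample, 21 of 37 were called in light and 7 of 37 for the change, which without centring was called for 5 of 36. Without array p1, 9 of 37 were called in light and 1 of 37 for the change. Without root dark replicate 2 the change was called for 2, without cotyledon light replicate 2 for 4, and without centring for 5. Without cotyledon light replicate 1 or cotyledon dark replicate 1 it was called for 8 or 7, and without root light n1 for 22. In light without cotyledon light replicate 1 or 2, 19 of 36 were called.

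**Figure D5:**
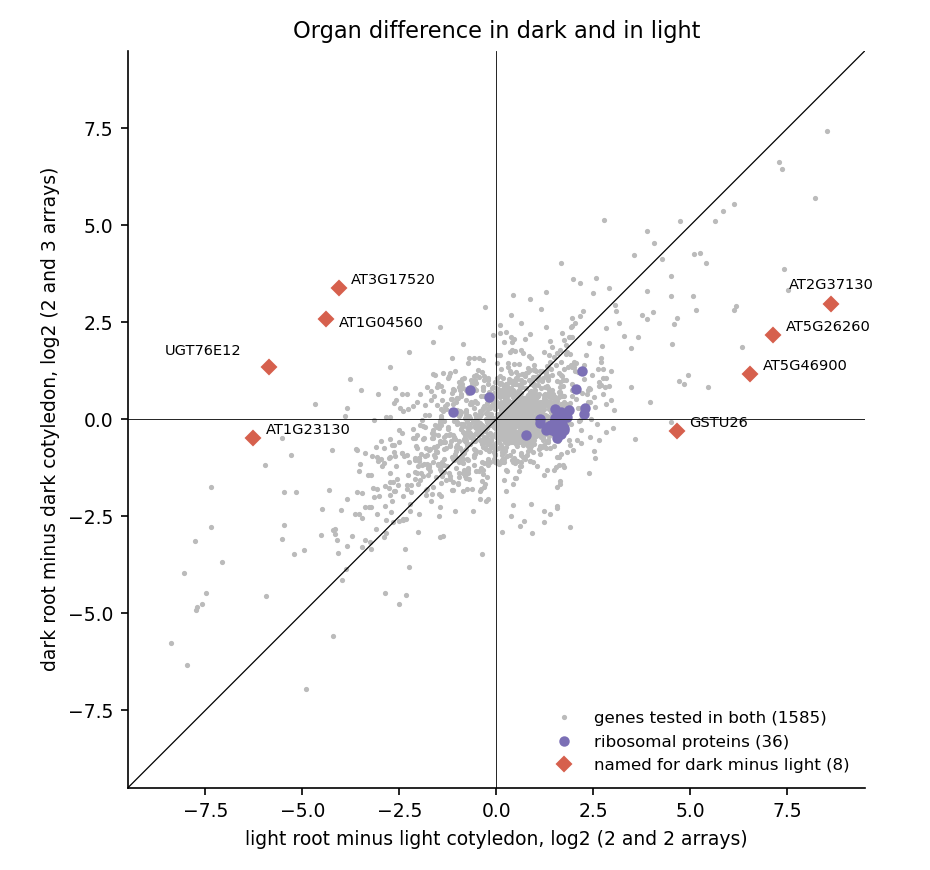
Root minus cotyledon on the log2 scale in dark (vertical axis) and in light (horizontal axis) for the 1585 named genes tested in both, with the diagonal marking equal differences. Purple points are 36 ribosomal protein genes, which lie near 0 in dark (median -0.09) and mostly above 1 in light (median 1.56), and red diamonds are the 8 genes with the largest called changes between dark and light, such as AT3G17520 at 3.38 in dark and -4.07 in light.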

How the data were processed

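Each array set 2 RNAs against each other, and the deposited values are on the log2 scale, with 0.001 the lowest ratio. They are not centred, with medians of 0.18 to 0.74 on the 5 dark arrays. Details of scanning, background correction and normalization by the authors are not given in the sources used here. Spot signal was not used. The median of each array was subtracted. A fit with 1 mean for each of 20 groups over all 51 arrays (limma 3.58.1 in R 4.3.3) gave differences, SE and two-sided p-values, adjusted by Benjamini-Hochberg over all probes tested in a comparison. A probe needed 2 values in every group compared. Calls needed a 2-fold difference or more and an adjusted p below 0.05.

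Gene names came from the platform's annotation of 27648 probes, which names 2676, 2032 with 1 gene and 644 with several. Of the 2032, 2029 matched RefSeq TAIR10.1, used for names alone. The 182 genomic-clone probes and 19 that disagreed with others of their accession were left unnamed. Spots of 3 control accessions were averaged, leaving 27600 features. For genes with several probes, the probe with most values, then the highest mean absolute level, was used.

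The comparison, its genes and the 27 gene lists were chosen with earlier results of these data known. List membership of loci without a symbol came from general knowledge of gene families. The named genes are the 12 highest and 12 lowest called genes with values on all 5 arrays and groups that do not overlap, the 4 largest called members of each list, all members of lists with 4 or fewer, and the 4 largest changes each way between dark and light. Members that make up counts of 5 or fewer or did not pass, further peroxidases and further examples were chosen after their values were seen. The fit was tested on simulated data with 24721 probes, 200 of them changed in the dark comparison. It recovered 28%, 54%, 80% and 94% of changes of 1.5, 2.5, 4 and 6 on the log2 scale, with 6 false calls. The simulated noise was normal and independent between probes and arrays, with each probe's residual SD from the fit of all 51 arrays. Array effects shared by many probes were not simulated, so the number of false calls on the real arrays is not known from it. The main fit did not pair root and cotyledon arrays by replicate number, and whether equal numbers mark a pairing is not known. No sequence was available for these genes in the tables used here. Alternatives were other scalings, other sets of arrays, trend and robust moderation, stricter filters on values, a replicate block and leaving out each array.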

Additional observations from a re-analysis of the deposited data

Results flagged for a closer look

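The difference between root and cotyledon itself differed between dark and light for 1463 of 22926 probes tested. Among named genes the changes below were the largest of each sign, as dark minus light on the log2 scale, by the limma fit. All rest on the light root arrays n1 and p1, which share a number in their labels.

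AT3G17520 changed by 7.45 ± 1.48 (SE), from -4.07 in light to 3.38 in dark. It stood at 2.36 and 3.96 in dark root and 1.15, -1.09 and -0.73 in dark cotyledon, against -0.78 and -1.47 in light root and 3.22 and 2.66 in light cotyledon. The organ that was higher was thus the root in dark and the cotyledon in light. The dark call was lost without cotyledon replicate 2 (adjusted p = 0.087) or 3 (0.069), and the dark difference was 2.58 without root replicate 2.

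UGT76E12, a glycosyltransferase gene, changed by 7.19 ± 1.54, from -5.86 to 1.34, with light cotyledon at 6.56 and 6.85 and the other arrays with a value between 0.49 and 2.46. AT1G04560 changed by 6.97 ± 1.66, from -4.39 to 2.58, and the call was lost without cotyledon light replicate 2 (5.97, adjusted p = 0.085) or light root p1 (5.44, 0.12). AT1G23130 changed by 5.78 ± 0.95. It stood at 5.53 and 6.62 in light cotyledon and between -0.45 and 1.06 on the other arrays of the 4 groups. For UGT76E12 and AT1G23130 the light cotyledon arrays were the ones apart.

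Among changes of the other sign, AT2G37130, a peroxidase, changed by -5.64 ± 0.85. Its light cotyledon arrays were at -3.33 and -4.89 against 2.61, 2.1 and 1.98 in the dark, while root was at 4.04 and 4.97 in light and 5.43 and 4.98 in dark. AT5G46900, a lipid transfer protein-like gene, changed by -5.36 ± 0.95, with 0.34 and -0.12 in light cotyledon and 4.76, 4.23 and 4.30 in dark cotyledon. AT5G26260 changed by -4.96 ± 0.64 and was higher in root in both conditions, by 2.17 in dark and 7.13 in light. GSTU26, a glutathione transferase gene, changed by -4.95 ± 0.91, from 4.66 to -0.29. Its dark difference did not pass and turned to 0.13 after quantile normalization.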

How the results depend on the processing

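The dark count of 3045 calls lay between 2145 and 3115 when an array was left out and was 1517 when the 5 arrays were fitted alone, where 1336 of the calls were shared. The light count ran from 3228 to 5716 with an array left out. The dark minus light count ran from 600 to 1891 with an array left out, and was 965 without centring and 825 with the light root arrays averaged. Deviations of root and cotyledon arrays from their group means correlated at -0.014 for arrays of number 1 and -0.0068 for number 2. The deviations of 2 root arrays mirror each other, so this check cannot tell whether arrays of the same number shared a harvest or batch. With the replicate block the dark count was 2582 and the dark minus light count 1619. Fitted on the 5 arrays alone, 2 of the chlorophyll and carotenoid, 3 of the thylakoid and photorespiration and 2 of the transferase genes were called in the list's direction, against 4, 7 and 4. For the thylakoid and photorespiration list the count ran from 3 to 6 with an array left out. Of 61 named called genes, 32 kept the call under every alternative and 38 whichever array was left out, while 26 lost it in the fit of 5 arrays, 19 without root replicate 2 and 12 with the replicate block.

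Some differences that did not pass changed sign. With an array left out, AT1G23130 (-0.49) ran from -1.03 without root replicate 2 to 0.046 without root replicate 1. CSN5B (0.07) ran from -0.76 without cotyledon replicate 1, and -0.54 without root replicate 2, to 0.67 without root replicate 1. GSTU26 (-0.29) was 0.13 with quantile normalization and 0.036 without cotyledon replicate 1. INO (-0.32) ran from -1.12 without root replicate 1 to 0.47 without root replicate 2. TUA1 (-0.05) was 0.075 without centring and ran from -0.31 without root replicate 1 to 0.33 without cotyledon replicate 1, with 0.21 without root replicate 2. Apart from these settings, no named gene changed sign under the alternatives run. The causes were not tested. The simulated dark comparison recovered 28% of changes of 1.5 on the log2 scale and ran none smaller, so a gene that did not pass may still differ.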
